A study of Arabidopsis thaliana with 57 samples.

Results

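The evening clock genes TOC1, PRR5, PRR3, GI, ELF3, ELF4, LUX and ZTL, with the RNA-binding protein genes GRP7 and GRP8, were followed in sorted stomatal lineage cells of Arabidopsis. They are 10 named genes of 27655 in the count table, chosen by gene identity and not by a rule on their counts. Earlier results of these data were known when they were chosen. All 10 passed the filter on low counts in every comparison. Between 2 h and 4 h of dexamethasone, 5 of the 10 rose when the lines were tested together (GRP7, GI, TOC1, LUX and PRR5), where 2.39% of all genes rose. The other 5 had positive estimates that did not pass the test. Between lines, GRP7 was lower in SPCH than in NLS, where 6.84% of genes passed and 4.13% were lower. GI and GRP8 were lower in SRDX-SPCH than in SPCH, where 11.6% passed and 6.19% were lower. No other member passed between lines in the main edgeR fits. Some alternative fits called GI, GRP8 or ELF4 in other comparisons, as given below.

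All seedlings were Col-0 plants in which the FAMA promoter drove LHG4-GR, an engineered transcription factor. That promoter is active in guard mother cells, guard cells and some myrosin cells (defence cells that store myrosinase). Dexamethasone (DEX, 30 µM) lets LHG4-GR enter the nucleus and switch on a Venus-tagged protein, which was a nuclear localization signal (NLS, the control), FAMA, SPCH, or FAMA or SPCH fused to the repressor domain SRDX. FAMA and SPCH are bHLH factors known to act late and early in the stomatal lineage. The study also found SPCH protein beside FAMA in some guard mother cells and guard cells. Seedlings 10 days after germination, raised with 16 h of light a day, received DEX for 2, 3 or 4 h, their cells were protoplasted for 2 h, and about 3000 Venus-positive cells per sample were sorted and sequenced. The libraries numbered 12 each for SPCH and SRDX-FAMA and 11 each for NLS, FAMA and SRDX-SPCH, with 3 or 4 at each time point, and 1 line per construct. Library totals ran from 7296381 to 60348384 counts, with a median of 33317326. The study notes that signal strength differed between the lines, which may have brought more cells of weak signal into the NLS sort.

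Clock time and hours of DEX cannot be told apart in this design, since the hour of harvest is not given in the sources used here and every library received DEX. No untreated seedlings were among the samples analysed here. The transgenes matched the labels in all libraries but 1. The library labelled SRDX-FAMA 4 h replicate 2 had 9663 normalized CPM (counts scaled by TMM and by library size to a common total) of SPCH and 345 of FAMA, where the other 11 SRDX-FAMA libraries had 14.4 to 43.9 of SPCH and 2181 to 6172 of FAMA. A FAMA library, 3 h replicate 3, held 279.9 normalized CPM of SPCH beside a median of 11.7 in its line. Tests, overlaps and ratios of SRDX-FAMA, and the test over all lines, are also given below without the library labelled SRDX-FAMA 4 h replicate 2; levels and correlations over all libraries include it.

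The plant clock is a set of transcription factors that repress one another in turn over the day. The morning factors CCA1 and LHY repress evening genes by binding the evening element in their promoters, and the evening genes in turn repress the morning ones. TOC1, PRR5 and PRR3 are pseudo-response regulators, ELF3, ELF4 and LUX form the evening complex, and ZTL is the blue-light F-box protein that targets TOC1 and PRR5 for degradation with the help of GI. GRP7 and GRP8 encode glycine-rich RNA-binding proteins that form a slave oscillator under the clock, in which each protein acts on the splicing of its own and the other's transcript; GRP7 also acts in guard cells, where it affects stomatal opening. GRP7 was among the genes that the study picked, in part from these libraries, for misexpression, so its values here are not independent of that choice.

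The stretch before the transcription start is shown for the 4 members whose full transcript is annotated and which hold the evening element there, because this is the element through which the morning factors act on evening genes. The 250 bases were read from TAIR10.1, 5′ to 3′ on the gene's strand, through that reference's own annotation from RefSeq. Capitals mark the evening element AAAATATCT on either strand (AGATATTTT on the other), and in LUX also the G-box CACGTG, which reads the same on both strands and overlaps no evening element.
GRP7, chr2:9266558-9266807, minus strand: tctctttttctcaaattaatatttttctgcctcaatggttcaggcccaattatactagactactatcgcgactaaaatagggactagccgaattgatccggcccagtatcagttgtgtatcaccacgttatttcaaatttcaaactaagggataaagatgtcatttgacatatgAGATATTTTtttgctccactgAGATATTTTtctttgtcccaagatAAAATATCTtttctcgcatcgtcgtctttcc
GRP8, chr4:18275217-18275466, minus strand: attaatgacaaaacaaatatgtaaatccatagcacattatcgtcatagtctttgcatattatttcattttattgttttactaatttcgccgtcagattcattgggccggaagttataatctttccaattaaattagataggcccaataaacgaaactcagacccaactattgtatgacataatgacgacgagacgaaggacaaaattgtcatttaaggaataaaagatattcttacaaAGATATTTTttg
TOC1, chr5:24674713-24674962, plus strand: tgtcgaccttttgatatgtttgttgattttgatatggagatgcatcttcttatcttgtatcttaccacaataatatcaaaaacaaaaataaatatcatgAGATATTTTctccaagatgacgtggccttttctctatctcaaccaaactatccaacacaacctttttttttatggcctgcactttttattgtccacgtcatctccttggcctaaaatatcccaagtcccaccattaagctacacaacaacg
LUX, chr3:17182792-17183041, plus strand: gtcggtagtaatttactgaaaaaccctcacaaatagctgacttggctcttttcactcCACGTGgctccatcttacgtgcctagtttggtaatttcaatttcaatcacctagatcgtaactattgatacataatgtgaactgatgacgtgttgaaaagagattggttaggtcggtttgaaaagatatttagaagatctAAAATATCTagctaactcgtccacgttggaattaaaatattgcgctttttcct

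GRP7 held 3 copies of the evening element, beginning 76, 55 and 31 bases before the start, and GRP8, TOC1, LUX and PRR5 held 1 each. In all, 5 of the 10 members held it, beside 648 of 27443 protein-coding genes (2.36%). The CCA1-binding site AAAAATCT, which shares letters with the evening element but overlapped no copy of it in these stretches, was in PRR5 only (6.69% of all genes), and the G-box was in LUX only (6.49%). PRR5's stretch is not printed, since its annotated model holds 1677 coding bases and no untranslated sequence, so the 250 bases lie before its coding start. Of the 5 members that rose over time, GRP7, TOC1, LUX and PRR5 held the element and GI did not. GRP8 held it and did not pass the test. These matches describe the letters of this window only.

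Ordered by mean level per length over the 57 libraries, in normalized CPM per kilobase of exon, GRP7 was highest at 136 ± 49.3 (SD), followed by PRR5 at 104 ± 23.2, GRP8 at 83.8 ± 19.9, LUX at 50.5 ± 11.4 and TOC1 at 50.0 ± 9.55. ZTL followed at 31.5 ± 4.31, ELF4 at 25.6 ± 12.7, GI at 21.2 ± 4.22 and ELF3 at 15.4 ± 2.39. PRR3 stood far below at 0.193 ± 0.0875, with 2 to 73 counts in a library, so its estimates carried the widest errors. Among neighbours in this order, the means of GRP7 and PRR5, PRR5 and GRP8, LUX and TOC1, ZTL and ELF4, and ELF4 and GI lay within 1 SD of the more variable gene, and PRR5's value rests on a model without untranslated bases. On the scale of normalized CPM without the length, used from here on, the members other than PRR3 lay between 15.9 (ELF4) and 197.8 (LUX) on average. GRP7 varied most among the abundant members, from 71.7 to 307 CPM, a range wider than that of GRP8 (52.7 to 158).

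**Figure D1:**
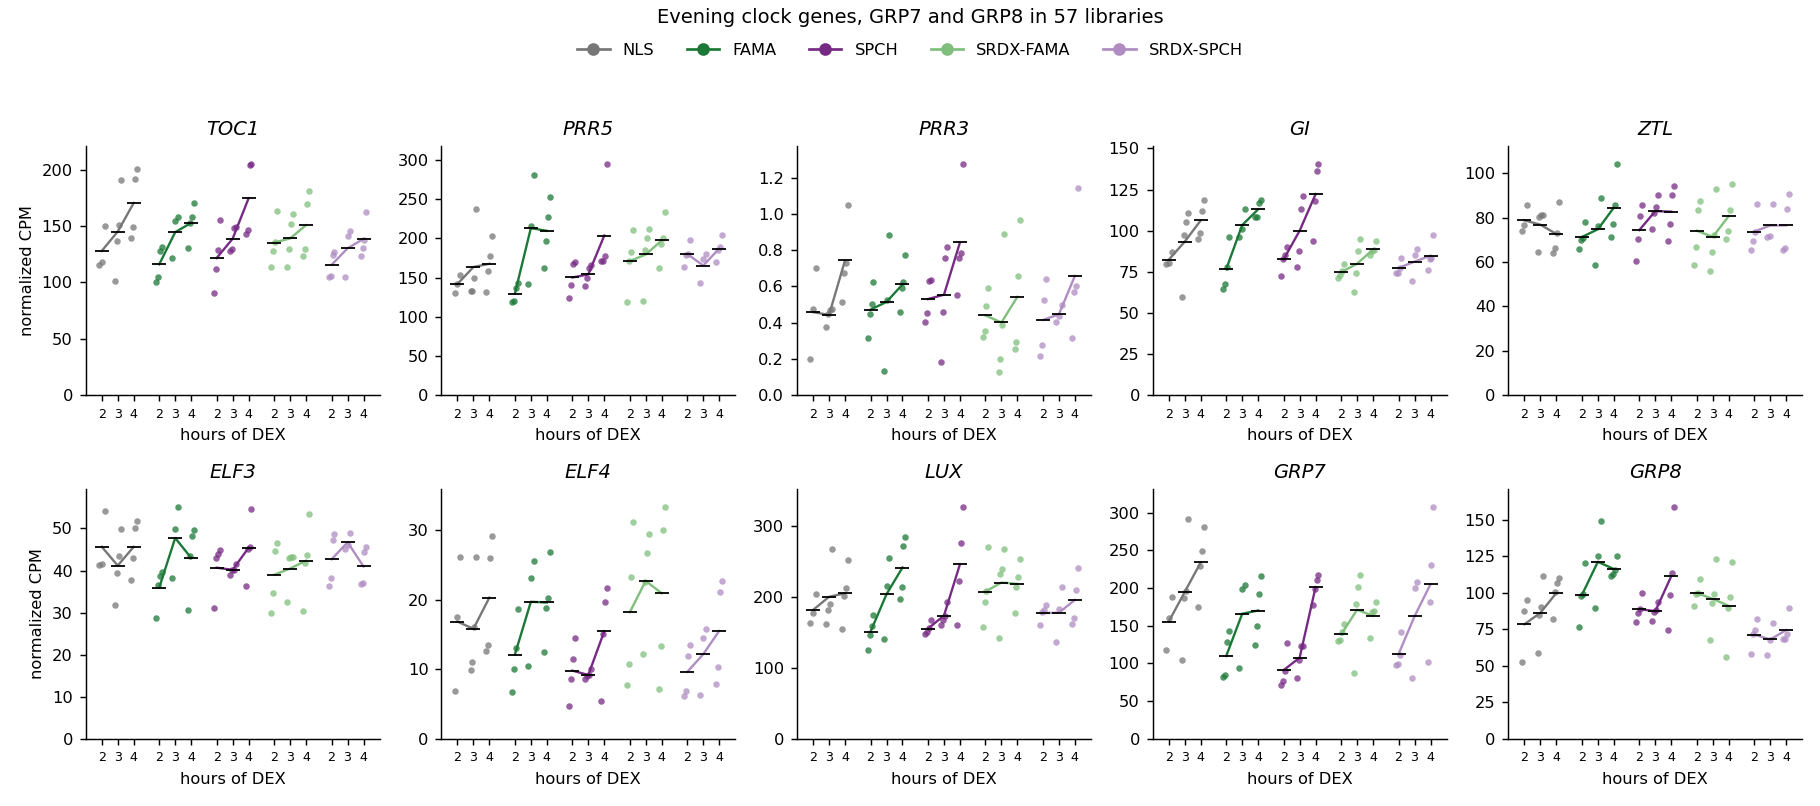
Normalized CPM (linear axis from 0) of each member by hours of DEX, in 5 blocks by line; each point is a library, the black bars are group means and the lines join them. GRP7 had a mean of 91.0 at 2 h and 201 at 4 h in SPCH, and no member passed the edgeR test within a single line.

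Hours of DEX were compared over all 57 libraries with the line as a term of the model. At 4 h against 2 h, 5 of 10 members rose and none fell, where 604 of 25301 genes (2.39%) rose and 1222 (4.83%) changed in either direction at an adjusted p under 0.05 (edgeR's quasi-likelihood test). The median log2 fold change of the members was 0.35, beside -0.0037 for all genes tested, and all 10 estimates were above 0. DESeq2's Wald test also gave 5 members higher, where 949 of 18983 genes (5%) were higher. The steps of 1 h gave 0 calls in edgeR for any gene, member or not (0% at 3 h against 2 h and 0% at 4 h against 3 h). At an unadjusted p under 0.05 there were 3 members in the first step, beside 1675 of 25301 genes, and 5 in the second, beside 1495. DESeq2 called 11 genes in the first step and 0 in the second, none of them a member.

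Without the library labelled SRDX-FAMA 4 h replicate 2, the 5 called members remained called, with adjusted p from 0.000251 (GI) to 0.0248 (PRR5) in edgeR, where 1575 genes passed. DESeq2 without it called 7 members, adding ELF4 (adjusted p = 0.0413) and PRR3 (0.0442), where 2196 genes passed. The count fell to 3 members when the FAMA line or the SPCH line was left out. LUX and PRR5 were the members lost, with adjusted p of 0.177 and 0.226 without FAMA and of 0.202 and 0.169 without SPCH, so those calls rested on both lines being present.

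GRP7 (AT2G21660) had the largest of the called changes. Its mean was 120 ± 31.5 normalized CPM (SD, n = 19) at 2 h, 160 ± 60.9 (n = 18) at 3 h and 195 ± 50.6 (n = 20) at 4 h, and the log2 fold change of 4 h against 2 h was 0.71 (SE 0.13, adjusted p = 0.000944, edgeR). In SPCH the 2 h libraries had 71.7, 76.4, 89.5 and 126 CPM, the 3 h libraries 80.1, 104, 123 and 123, and the 4 h libraries 178, 199, 210 and 217. The 4 h libraries of SPCH lay above all others of that line, with no overlap, and the step came between 3 h and 4 h. In FAMA the 2 h libraries had 82.4, 85.0, 129 and 143 CPM, the 3 h libraries 94.2, 199 and 204, and the 4 h libraries 124, 149, 191 and 216. NLS, in which DEX induces neither FAMA nor SPCH, went from 118, 160 and 188 CPM at 2 h to 175, 229, 250 and 281 at 4 h. These groups overlapped in FAMA and in NLS.

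In the repressor lines GRP7 had 129, 131, 142 and 152 CPM at 2 h and 134, 168, 169 and 181 at 4 h in SRDX-FAMA. It had 97.9, 98.5, 112 and 142 CPM at 2 h and 102, 181, 230 and 307 at 4 h in SRDX-SPCH, where the 4 h libraries spread most. Both pairs of groups overlapped, but the overlap in SRDX-FAMA rested on 1 library: the 134 is the library labelled SRDX-FAMA 4 h replicate 2, and without it 168 to 181 CPM at 4 h lay above 129 to 152 at 2 h. The log2 fold change of GRP7 within SRDX-FAMA was 0.25 with that library and 0.33 without it, and neither passed in edgeR.

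GRP8 (AT4G39260) lies on another chromosome and encodes a protein close to GRP7's, with 78.6% of 504 aligned coding bases identical. No stretch of 50 exon bases of any member recurs elsewhere in the nuclear genome, so reads of the pair are told apart at this read length. GRP8 did not pass where GRP7 did: its log2 fold change at 4 h against 2 h over all lines was 0.16 (SE 0.089, adjusted p = 0.328, edgeR). The changes of the pair were not tested against each other. In SPCH its 2 h libraries had 79.7, 86.3, 88.9 and 99.8 CPM and its 4 h libraries 74.6, 98.5, 113 and 158, which overlap. The ratio of GRP7 to GRP8 within a library had a mean of 2.24 ± 0.499 in NLS (SD, n = 11) and 1.299 ± 0.277 in FAMA (n = 11), with 1.40 ± 0.564 in SPCH (n = 12), 1.68 ± 0.374 in SRDX-FAMA (n = 12; 1.61 ± 0.309 without the library that goes against its label) and 2.21 ± 0.828 in SRDX-SPCH (n = 11). The ratio of CPM sets genes of nearly equal exon length side by side and was not tested.

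GI (AT1G22770), a large protein that stabilizes ZTL and promotes flowering, had the smallest adjusted p of the members. It went from 78.6 ± 7.80 CPM at 2 h (SD, n = 19) to 91.5 ± 17.8 at 3 h (n = 18) and 103 ± 18.01 at 4 h (n = 20), a log2 fold change at 4 h against 2 h of 0.37 (SE 0.066, adjusted p = 0.000498, edgeR). FAMA had 64.5, 67.5, 78.2 and 96.3 CPM at 2 h and 108, 108, 117 and 119 at 4 h. SPCH had 72.6, 83.0, 85.0 and 89.8 CPM at 2 h and 93.9, 118, 137 and 141 at 4 h. In NLS the values were 79.6, 80.1 and 87.2 CPM at 2 h and 95.2, 98.6, 112 and 119 at 4 h. Each of these lines had all 4 h libraries above all 2 h libraries. SRDX-FAMA did too, within a narrower range of 71.0 to 79.8 CPM at 2 h and 85.3 to 93.6 at 4 h, and in SRDX-SPCH the groups overlapped, with 74.4 to 83.2 CPM at 2 h and 75.8 to 97.6 at 4 h. ZTL (AT5G57360), GI's partner, was at 74.2 ± 8.91 CPM at 2 h and 79.4 ± 11.6 at 4 h, a log2 difference of 0.097 (SE 0.065, adjusted p = 0.472, edgeR).

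TOC1 (AT5G61380), the repressor that closes the loop on the morning genes, rose from 123 ± 19.1 CPM at 2 h to 157 ± 27.2 at 4 h, a log2 fold change of 0.35 (SE 0.074, adjusted p = 0.00287, edgeR). Its libraries in SPCH had 90.7, 112, 129 and 156 CPM at 2 h and 143, 147, 204 and 205 at 4 h, and in NLS 115, 119 and 150 at 2 h and 139, 150, 192 and 201 at 4 h. The 2 h and 4 h groups of TOC1 overlapped in every line. PRR5 (AT5G24470), which acts beside TOC1 and brings it into the nucleus, rose by 0.32 on the log2 scale (SE 0.091, adjusted p = 0.0269, edgeR), from 155 ± 27.9 to 193 ± 37.0 CPM. In FAMA PRR5 had 119, 120, 137 and 143 CPM at 2 h and 162, 196, 227 and 253 at 4 h, with no overlap. In SPCH it had 124, 140, 167 and 169 CPM at 2 h and 171, 171, 178 and 295 at 4 h, where the groups did not overlap but 3 of the 4 h libraries lay within a few CPM of the highest 2 h library. Without SPCH 4 h replicate 4, the library at 295, the pooled log2 fold change of PRR5 was 0.26 (adjusted p = 0.0720), and without FAMA 2 h replicate 2 it was 0.30 (adjusted p = 0.0545), so the call depended on each of these libraries. PRR3 (AT5G60100), which protects TOC1 from ZTL, had an estimate of 0.54 (SE 0.20, adjusted p = 0.115, edgeR) from 0.463 ± 0.152 to 0.680 ± 0.272 CPM.

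LUX (AT3G46640), the DNA-binding subunit of the evening complex, rose by 0.35 on the log2 scale (SE 0.091, adjusted p = 0.0157, edgeR), from 174 ± 31.5 CPM at 2 h to 222 ± 46.1 at 4 h. Its libraries in FAMA had 125, 146, 159 and 175 CPM at 2 h and 198, 214, 272 and 284 at 4 h, with no overlap. In SPCH they had 148, 150, 156 and 167 CPM at 2 h and 160, 223, 276 and 327 at 4 h, with 1 library of 4 h inside the range of 2 h. A neighbouring gene on the other strand covers 698 of LUX's 3916 exon bases, and whether the counting used strand is not given in the sources used here, so reads from those bases cannot be assigned. ELF4 (AT2G40080), a small protein that helps the complex act in the nucleus, had a larger but noisier estimate of 0.51 (SE 0.20, adjusted p = 0.142, edgeR), from 13.1 ± 7.30 to 18.4 ± 8.11 CPM. ELF4 varied several-fold within groups, with 7.73, 10.7, 23.3 and 31.2 CPM among the SRDX-FAMA libraries at 2 h. ELF3 (AT2G25930), the scaffold of the complex, stayed between 28.8 and 55.0 CPM in every library and had an estimate of 0.10 (SE 0.074, adjusted p = 0.539, edgeR).

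Within single lines the same question was asked with 11 or 12 libraries. No member passed at any of the 3 time contrasts in any line in edgeR, where 0% of genes passed in each contrast except 4 h against 2 h in SRDX-SPCH, which had 1 gene of 23782 (0.0042%). At an unadjusted p under 0.05, FAMA had 5 members at 4 h against 2 h (3337 of 23598 genes) and 4 at 3 h against 2 h (2517). SPCH had 5 at 4 h against 2 h (1696 of 23317 genes) and 3 at 4 h against 3 h (590). SRDX-SPCH had 1 at 4 h against 2 h (1435 of 23782 genes). The lowest adjusted p of a member was 0.0871, for GRP7 in SPCH with a log2 fold change of 1.14 (SE 0.19), followed by 0.0986 for GI in FAMA with 0.57 (SE 0.13). DESeq2, the tool of the study, called GI, LUX and PRR5 higher in FAMA at 4 h against 2 h (adjusted p = 0.00592, 0.0298 and 0.0321), where 336 of 19471 genes (1.73%) were higher. In SPCH it called GRP7 higher at 4 h against 2 h (adjusted p = 2.42e-05), where 106 of 17880 genes (0.593%) were higher, and again at 4 h against 3 h (adjusted p = 0.0461), where GRP7 was the single gene called higher of 27465 (0.00364%).

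The members' median log2 fold change at 4 h against 2 h was highest in SPCH (0.54) and FAMA (0.48), followed by NLS (0.29) and the repressor lines SRDX-FAMA (0.20) and SRDX-SPCH (0.14), beside medians of all genes between -0.035 and 0.028. Estimates were above 0 for all 10 members in FAMA and in SPCH, for 9 in each SRDX line and for 8 in NLS. Every 4 h library lay above every 2 h library for 3 members in FAMA (GI, PRR5 and LUX; 3.52% of all genes) and 3 in SPCH (GI, PRR5 and GRP7; 1.83%). It did so for GI alone in NLS (2.66%) and in SRDX-FAMA (0.826%), for GI and GRP7 in SRDX-FAMA without the library labelled 4 h replicate 2 (2.06%), and for no member in SRDX-SPCH (1.64%). Whether the change from 2 h to 4 h differed from that in NLS was tested directly, and 0 members passed for any of the other 4 lines (0% of genes in each) or in the test of all interaction terms together (1 gene of 25301, 0.00395%). Without the library labelled SRDX-FAMA 4 h replicate 2, the members' median in SRDX-FAMA was 0.22, and again 0 members passed within that line or in an interaction test. The lowest unadjusted p of a member in these interaction tests was 0.0884, so the larger medians in FAMA and SPCH are not shown to differ from those of NLS.

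**Figure D2:**
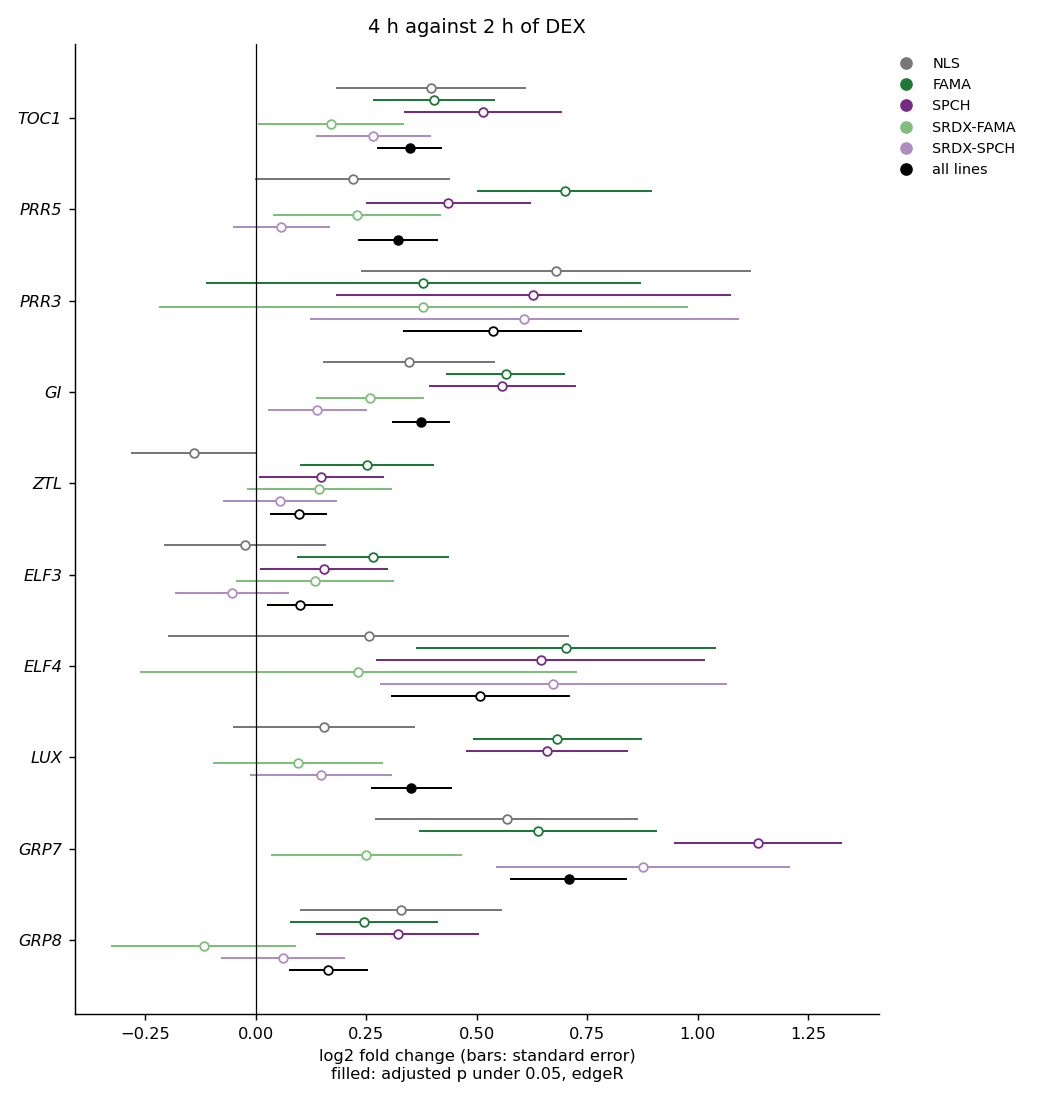
Log2 fold change of 4 h against 2 h of each member (x axis), by line and over all lines (black), with bars of 1 standard error; filled points have an adjusted p under 0.05. Filled points stand only in the fit over all lines, for TOC1, PRR5, GI, LUX and GRP7.

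A letter from a to f ends the library names, and the labels do not say what it marks. Libraries of letter a were from 2 h and 4 h only, those of b from 2 h and 3 h only and those of c from 3 h and 4 h only, so letter and time were not balanced. With the letter as a term, 5 members still passed at 4 h against 2 h over all lines. The share of all genes that passed in that fit is not given here, so the count stands without its background. In that edgeR fit the log2 fold change of GRP7 was 0.64 (adjusted p = 0.000537) and that of GI 0.38 (adjusted p = 0.000153). In 11 cases a line had a 2 h and a 4 h library of the same letter, a pairing looked at after the values were seen. GRP7, GI and PRR5 were higher at 4 h in 11 of 11 such pairs, with median log2 ratios of 0.49, 0.22 and 0.44. TOC1, LUX and ELF4 were higher in 9 of 11, PRR3 and ELF3 in 8, ZTL in 7 and GRP8 in 6. These pairs were counted for the members only, so the share of all genes with such counts is not known. At 3 h the libraries of letter e were the lowest of their line for GRP7 in 4 of 4 lines that had one, at 80.1 to 104 CPM, and for ELF3 in 4 of 4. They were lowest in 3 of 4 lines for TOC1, GI, ELF4, LUX and GRP8, in 2 for PRR5 and in 1 for PRR3 and ZTL. The low values at letter e were thus shared by most members, and all genes were not counted.

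Other genes of the clock were taken from lists by role. Of 12 morning and day genes, 0 rose and 2 fell at 4 h against 2 h over all lines, with a median log2 fold change of -0.11. LHY, the morning repressor of evening genes, fell by 0.88 (SE 0.24, adjusted p = 0.0198, edgeR), from 17.4 ± 8.15 CPM at 2 h to 9.40 ± 5.08 at 4 h, and LNK3, of the LNK coactivator family, fell by 0.60 (SE 0.14, adjusted p = 0.00595). CCA1, LHY's close partner, had an estimate of -0.50 (adjusted p = 0.0866). Among 10 close relatives and partners of the evening genes, 3 rose and 1 fell. FKF1, the ZTL relative that works with GI in flowering, rose by 1.23 (SE 0.16, adjusted p = 3.61e-06), from 31.0 ± 7.45 to 73.1 ± 24.8 CPM. COR28 and COR27, small proteins that respond to cold and light and act on the clock at night, rose by 0.87 (adjusted p = 0.00206) and 0.80 (adjusted p = 0.00704). ELF4-L2, a relative of ELF4, fell by 0.38 (adjusted p = 0.0293).

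Of 10 output genes downstream of GI and of the evening complex, CDF2, a repressor of CO that GI and FKF1 remove, fell by 0.55 (SE 0.10, adjusted p = 0.000714), from 33.8 ± 6.62 to 23.0 ± 6.10 CPM, and 0 rose. PIF4 and PIF5, growth factors that the evening complex represses, had estimates of -0.66 and -0.45 that did not pass in edgeR (adjusted p = 0.190 and 0.305). The other glycine-rich and zinc-finger RNA-binding genes of GRP7's type gave 0 calls among 8 (lowest adjusted p 0.113, for GRP4 with an estimate of -0.41), and the 7 cold-regulated genes gave 0 calls, with a median of -0.43 (lowest adjusted p 0.0646, for COR47). At an unadjusted p under 0.05, 2 of the 8 and 4 of the 7 passed, beside 4576 of all 25301 genes.

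Markers of the sorted cells were looked at beside these changes. Over the libraries, 6 guard cell and guard mother cell markers without FAMA summed to 400 to 1108 CPM at 2 h and 362 to 1154 at 4 h, and none of the 7 with FAMA passed at 4 h against 2 h (median -0.032). TGG1 and TGG2, listed here as myrosin cell markers, summed to 12434 to 70866 CPM at 2 h and 19808 to 72979 at 4 h. TGG1 rose by 0.37 (SE 0.11, adjusted p = 0.0463, edgeR) while TGG2 had an estimate of 0.25 (adjusted p = 0.710). The median of their sum over all libraries was 41159.5 CPM, beside 698.9 for the 6 guard cell and guard mother cell markers. The study describes myrosin cells as a small portion of the sorted cells. How much of TGG1 and TGG2 came from myrosin cells was not tested. The 3 mesophyll markers summed to 1307 to 3330 CPM at 2 h and 767 to 3777 at 4 h, and those, the epidermis and the phloem markers gave 0 calls over time. The part of the myrosin cells in the members' change was not tested, and fewer cells of a type and less RNA per cell cannot be told apart in such bulk samples.

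**Figure D3:**
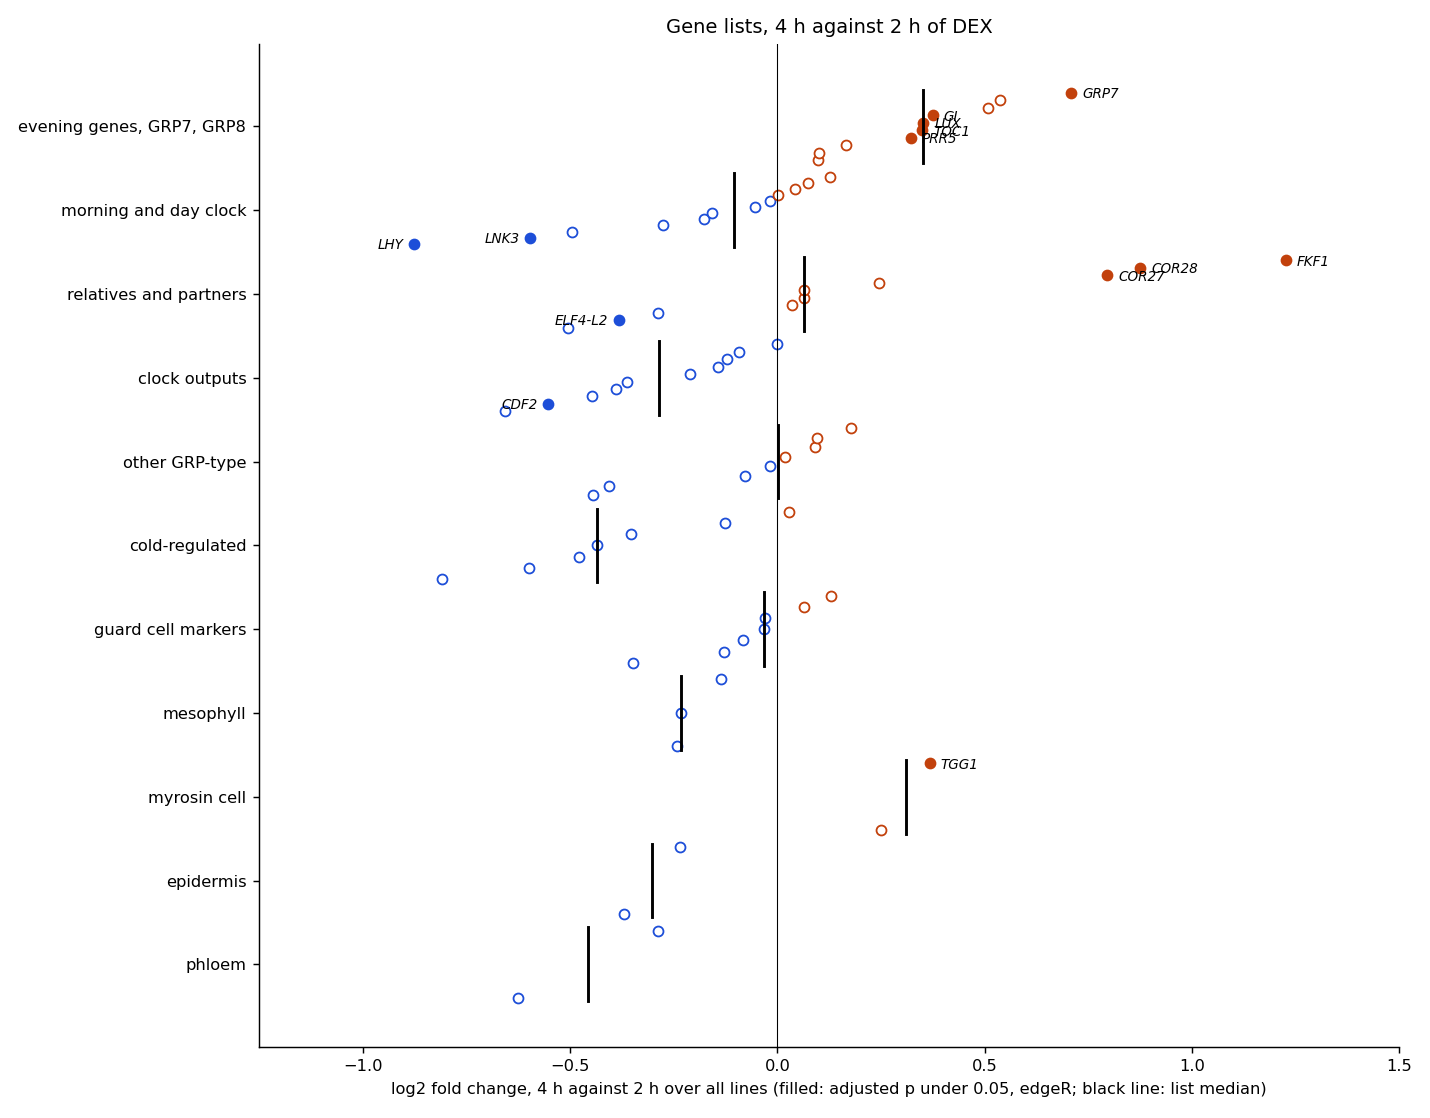
Log2 fold change of 4 h against 2 h over all lines (x axis) of each gene of 11 lists; filled points passed at an adjusted p under 0.05 and are named, red is above 0 and blue below, and the black line is the list's median. The evening genes with GRP7 and GRP8 all lie above 0, and LHY at -0.88 and FKF1 at 1.23 are the extremes.

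Each line was then compared with NLS over all time points. GRP7 was lower in SPCH than in NLS by a log2 difference of -0.61 (SE 0.15, adjusted p = 0.0127, edgeR), with 71.7 to 217 CPM, median 123, in SPCH and 104 to 292, median 188, in NLS. This was the single member of 10 that passed in SPCH, where 1684 genes (6.84%) passed and 1016 (4.13%) were lower. The fit pools the time points. In the GRP7 values given above, SPCH lay mostly below NLS at 2 h and inside the NLS range at 4 h, though no member passed the interaction test. The other lines also had negative estimates for GRP7, of -0.40 in FAMA (adjusted p = 0.181), -0.31 in SRDX-FAMA (0.383) and -0.29 in SRDX-SPCH (0.600). No member passed in FAMA (7.42% of genes), SRDX-FAMA (2.25%) or SRDX-SPCH (2.67%) in the main edgeR fits, and DESeq2 gave 0 members in each of these. At an unadjusted p under 0.05 in edgeR there were 2 members in FAMA (4617 of 24366 genes), 1 in SRDX-FAMA (3222 of 24327) and 2 in SRDX-SPCH (3156 of 24480). In SRDX-FAMA 0 members passed without the library labelled 4 h replicate 2 either, in edgeR (809 genes, beside 547) or DESeq2. No member had every library of a line on one side of every NLS library. The NLS libraries serve in all of these comparisons. The cell markers differed between the lines too. TGG1 and TGG2 summed to a median of 66898 CPM in SPCH and 31668 in NLS, and the 2 epidermis markers to 86.2 in SPCH and 216 in NLS. PDF1, an epidermis marker here, is also among the putative SPCH and FAMA targets that the study selected, in part from these libraries. Whether its level follows cell content or the induced factor was not tested, nor was the part of these markers in the difference of GRP7.

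ELF4 in SPCH, at 4.64 to 21.7 CPM, median 9.58, against 6.94 to 29.1, median 16.1, in NLS, had an estimate of -0.65 (adjusted p = 0.127). GRP8 in FAMA had an estimate of 0.34 (adjusted p = 0.0872), with 76.1 to 149 CPM, median 113, against 52.7 to 111, median 89.8, in NLS. ELF4 passed with the letter as a term (adjusted p = 0.0441), and GRP8 passed when at least 10 counts were required in every library (adjusted p = 0.0440).

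Each induced factor was set beside its repressor fusion. GRP8 was lower in SRDX-SPCH, at 57.2 to 89.2 CPM, median 71.4, than in SPCH, at 74.6 to 158, median 88.5, a log2 difference of -0.42 (SE 0.098, adjusted p = 0.00628, edgeR). GI was lower by -0.31 (SE 0.090, adjusted p = 0.0264, edgeR), with 69.7 to 97.6 CPM, median 82.8, in SRDX-SPCH and 72.6 to 141, median 91.9, in SPCH. For these 2 of 10 members the background was 2851 genes (11.6%), 1525 (6.19%) of them lower. The GI call was lost when any one of SPCH 4 h replicate 1, SRDX-SPCH 3 h replicate 3, SRDX-SPCH 4 h replicate 3 or SRDX-SPCH 4 h replicate 4 was left out, with adjusted p from 0.0513 to 0.0553. The fit pools the time points. In the GI values given above, the SRDX-SPCH range lay inside the SPCH range at 2 h and mostly below it at 4 h. A change of this difference with time was not tested. Cell markers differed between these lines, with a median sum of TGG1 and TGG2 of 46279 CPM in SRDX-SPCH and 66898 in SPCH, and of the epidermis markers of 139 and 86.2. The epidermis markers include PDF1, a putative target of the induced factors in the study. The part of these markers in the differences of GRP8 and GI was not tested.

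In SRDX-FAMA against FAMA no member passed in the main edgeR fit (13.1% of genes), with 1 at an unadjusted p under 0.05, beside 6100 of 24396 genes. GI had a log2 difference of -0.23 (SE 0.078, adjusted p = 0.0574), with 62.7 to 94.9 CPM, median 82.6, in SRDX-FAMA and 64.5 to 119, median 101, in FAMA, and DESeq2 called it lower (adjusted p = 0.0169), where 1589 of 20553 genes (7.73%) were lower. Without the library labelled SRDX-FAMA 4 h replicate 2, GI had a difference of -0.22 (adjusted p = 0.0868) in edgeR and -0.24 (adjusted p = 0.0381) in DESeq2. TGG1 and TGG2 summed to a median of 20377 CPM in SRDX-FAMA and 42198 in FAMA, and their part in the difference was not tested.

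SPCH and FAMA were compared with each other last. Over the time points no member passed in the main fit (1.57% of genes), the largest estimate being that of ELF4 at -0.55 (SE 0.23, adjusted p = 0.374, edgeR). At single time points no member passed at 2 h (0.00881% of genes), 3 h (0.0133%) or 4 h (0.00892%) in edgeR. At an unadjusted p under 0.05 there were 0 members at 2 h (1098 of 22697 genes), 4 at 3 h (1965 of 22531) and 0 at 4 h (1092 of 22415). The 4 at 3 h were ELF4, GRP8, GRP7 and PRR5, all with lower values in SPCH. ELF4 had 8.61, 8.96, 9.14 and 10.0 CPM in SPCH and 10.4, 23.1 and 25.6 in FAMA at 3 h, which do not overlap, with a log2 difference of -1.11 (SE 0.26, adjusted p = 0.459, edgeR), and DESeq2 called it lower (adjusted p = 0.0234), where 53 of 18924 genes (0.28%) were lower.

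**Figure D4:**
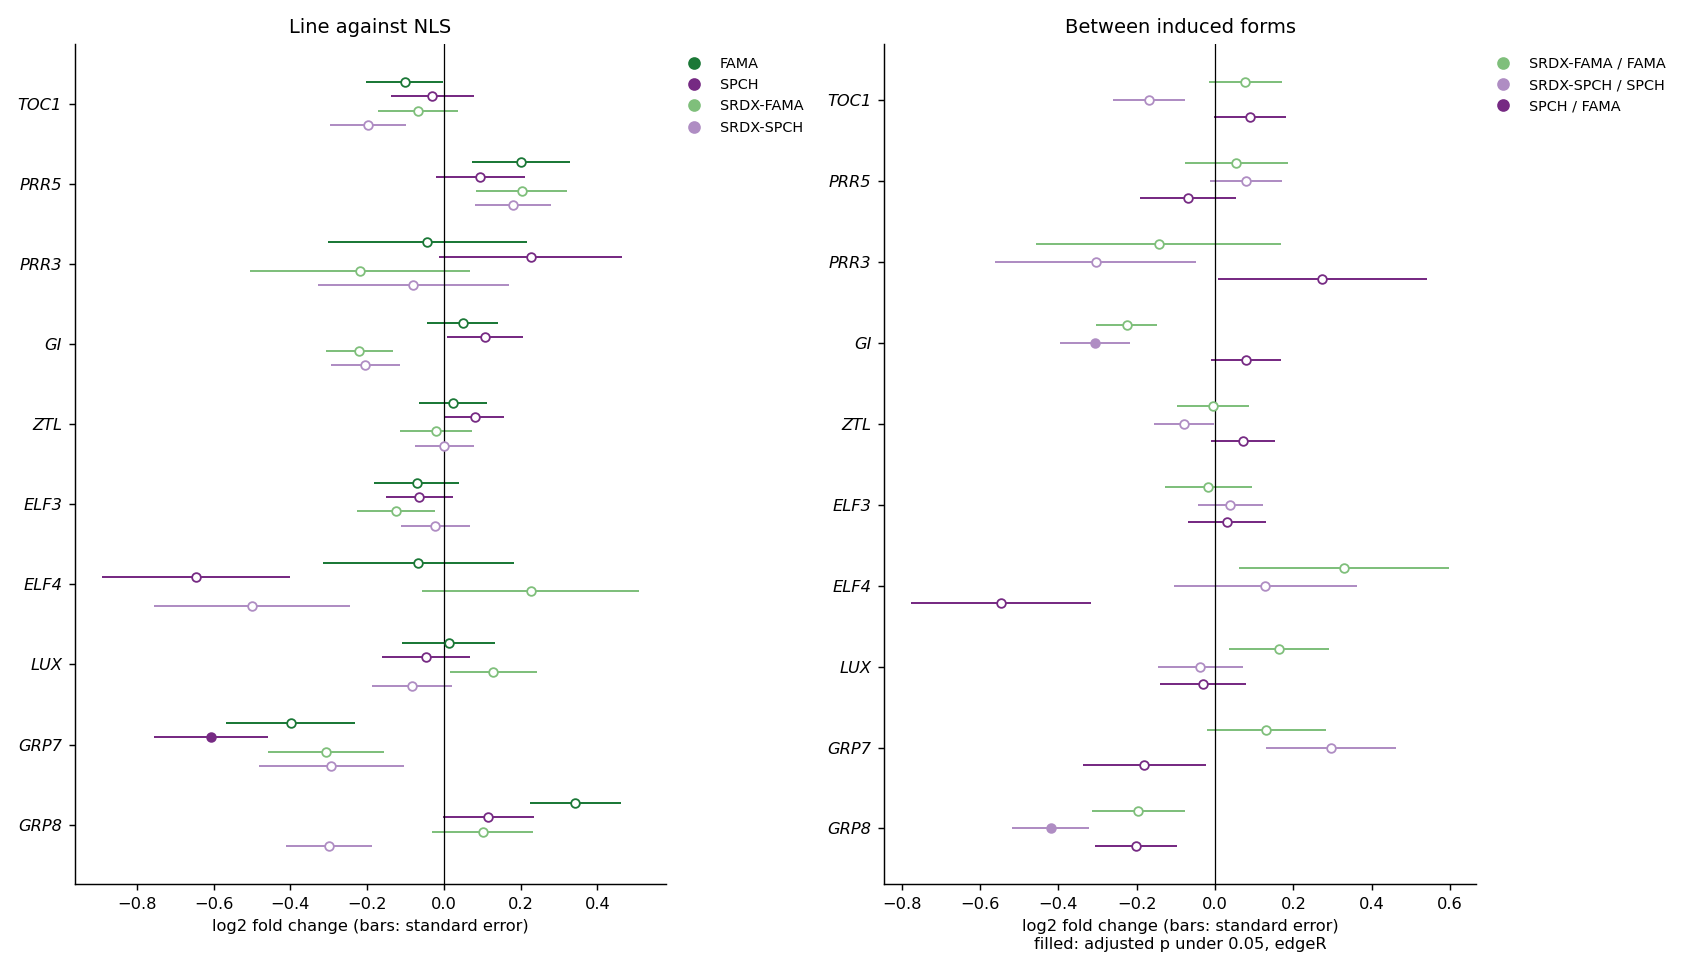
Log2 fold change of each member for each line against NLS (left) and between induced forms (right), with bars of 1 standard error; filled points have an adjusted p under 0.05 in edgeR. GRP7 in SPCH against NLS, at -0.61, and GRP8 and GI in SRDX-SPCH against SPCH, at -0.42 and -0.31, are the filled points.

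The members' patterns over the 15 means of line and time point were compared as a description. GI and TOC1 had the highest correlation of log2 CPM among the members (Pearson r 0.83), followed by TOC1 and LUX (0.82), TOC1 and GRP7 (0.81) and PRR5 and LUX (0.80), while GRP7 and GRP8 had 0.20. These points share libraries and depth. Within groups, over the 57 libraries after the group means were taken off, PRR5 and LUX had 0.79, TOC1 and ELF4 0.76, ELF4 and GRP8 0.71, and GRP7 and GRP8 0.53. Among 25301 genes, those most like GRP7 over the 15 means were JMJD5 (AT3G20810; r 0.93), a jumonji-domain gene of the clock, ACA8 (AT5G57110; 0.93), a calcium pump, and AT1G17665 (0.92). Those most like PRR5 were BBX8 (AT5G48250; 0.95), a B-box protein, AT1G55820 (0.93) and AT5G13760 (0.85), and those most like GI were HDA2 (AT5G26040; 0.96), a histone deacetylase, AT1G18900 (0.95) and LCB1 (AT4G36480; 0.95), a subunit of the enzyme that starts sphingolipid synthesis.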

How the data were processed

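The authors sequenced single-end 50 bp SMART-Seq libraries of sorted cells, aligned the reads to TAIR10 (STAR), ran HTSeq on the alignments and deposited raw counts of 27655 genes in 57 libraries, with no normalization or pooling; versions, annotation release and use of strand are not given in the sources used here. Line, time and replicate came from the sample records; 1 of the 4 h FAMA libraries carries no number or letter and was left out of the block fits only. Where nothing in the records says that replicates came from separate sowings, p-values measure the spread between these samples.

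Genes were kept by filterByExpr (minimum count 10) and scaled by TMM in edgeR 4.0.16 (R 4.3.3). Comparisons used the quasi-likelihood F test of edgeR, adjusted after Benjamini-Hochberg over all genes tested, and a threshold of 0.05. SE is the log2 fold change divided by the square root of F. Alternatives were DESeq2 1.42.0 (Wald test; its size factors), no filter, a stricter minimum of 10 counts per library, blocks by replicate number and by letter, 1 fit of all libraries, and each library and each line left out. The fits were tested on simulated data. The replicate numbers of the sample titles do not pair samples: same-numbered samples had a median correlation of deviations of -0.038. For samples sharing the letter of the library name it was 0.235, over 0.1 in 143 of 239 pairs, beside -0.040 for other pairs, but the labels do not say what the letter marks. After the data were seen, DESeq2 and the overlaps were also run without the library that goes against its label.

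The members and lists were chosen with earlier results of these data known. Genes named are the members, the 3 genes most correlated with GRP7, PRR5 and GI, and, from other lists, those past the threshold over time or the one with the smallest adjusted p. CCA1, PIF4, PIF5 and TGG2 were named after their values were seen. PDF1 was named because the study selected it. Promoters and gene models are from TAIR10.1 (RefSeq), read by gene identifier. No column of the table was left out.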

Additional observations from a re-analysis of the deposited data

Results flagged for a closer look

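In groups of 4 libraries, a library far from the other 3 was found in 5 of 120 groups of members, by a rule that chance alone meets in about 1 in 20 groups. ELF3 had 31.0 CPM in SPCH 2 h replicate 2, beside 42.9 to 44.8 in the others, and 32.5 CPM in SRDX-FAMA 3 h replicate 4, beside 42.9 to 43.2. PRR5 had 237.9 CPM in NLS 3 h replicate 3, beside 133 to 149, and 295 CPM in SPCH 4 h replicate 4, beside 171 to 178. ZTL had 64.7 CPM in NLS 3 h replicate 2, beside 80.2 to 81.2.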

How the results depend on the processing

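Of the counts of called members over the alternatives, 1027 stayed within 1.5 times their main value, 20 rose and 6 fell by more. Where the main count was 0, as in most comparisons, an unchanged count was 0 in both fits. A fall from 5 to 4 stayed within that range, as over all lines without FAMA 2 h replicate 2 or SPCH 4 h replicate 4. No member's estimate that passed in either fit changed sign. Some that passed in neither did, as for ELF4 in NLS at 4 h against 2 h (0.26, lowest alternative -0.27). In FAMA at 4 h against 2 h, 1 member passed in 1 fit of all 57 libraries (209 genes in all) and 3 with DESeq2 (1085 genes, beside 0). DESeq2 gave 1 member in SPCH at 4 h against 3 h (5 genes), 1 at 4 h against 2 h (173 genes) and 1 in SPCH against FAMA at 3 h (154 genes, beside 3). Over all lines, 3 members passed without the FAMA line (311 genes, beside 1222) and 3 without the SPCH line (283 genes), while DESeq2 called 1943 genes and the same number of members. Requiring 10 counts in every library gave 1 member in FAMA against NLS (2180 genes). The letter as a block gave 2 members in SPCH against NLS (3930 genes, beside 1684) and 1 in SPCH against FAMA over time points (483 genes). In SRDX-FAMA against FAMA, 1 member, GI, passed with DESeq2's size factors, with at least 10 counts, in 1 fit of all 57 libraries and with DESeq2 (3100, 3771, 3633 and 3884 genes), and 1 with DESeq2 without SRDX-FAMA 4 h replicate 2 (3630 genes; chosen after seeing the data). Leaving out single libraries gave 0 to 1 members in SRDX-FAMA against NLS (GI, without NLS 3 h replicate 4), in SRDX-SPCH against NLS (GRP8, without NLS 2 h replicate 1), in SPCH against FAMA at 3 h (ELF4, without FAMA 3 h replicate 2) and in SRDX-FAMA against FAMA, and 1 to 2 in SRDX-SPCH against SPCH. The causes were not tested. With the replicate number as a block, which does not pair these samples, 5 members passed over all lines at 4 h against 2 h, with a log2 fold change of 0.73 for GRP7 (adjusted p = 0.00118), and 1040 genes in all. Depth limits PRR3, with 2 to 73 counts in a library, and 3 or 4 libraries in a group limit the tests within a line.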
